A study of Homo sapiens with 8 samples.

Results

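The genes described here are 41 genes of the ATF4 pathway and the unfolded protein response, measured by RNA-seq in the M1, M2, M3 and M4 lines of a breast cancer progression model. They were chosen by name, with earlier results of these data known. Each listed symbol was matched to its Ensembl row in the deposited gene count table, and all 41 were found among the 56632 genes of the table. They comprised 20 amino acid genes (7 for synthesis and one-carbon metabolism, 7 transporters and 6 tRNA synthetases), 11 further genes of the ATF4 arm (6 transcription factors and 5 stress and feedback genes), and 10 genes for protein folding and quality control in the endoplasmic reticulum (ER). All 41 passed the filter on low counts and were among the 18431 genes tested.

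M1 is MCF10A, an immortalized mammary epithelial line that does not form tumors. M2 is MCF10AT1k.cl2, made from M1 by transfection of activated T24-HRAS and passage as a xenograft, and it forms premalignant lesions. M3 (MCF10Ca1h) and M4 (MCF10CA1a.cl1) both came from carcinomas that arose in M2 xenografts, and M4 forms the less differentiated tumors. Each line was 1 line sampled in 2 biological replicates, grown for 8 days in 3D culture on Matrigel (2.5% Matrigel in the medium) with 2% horse serum, hydrocortisone, cholera toxin and insulin. The medium of M1 and M2 held EGF at 10 ng/ml and that of M3 and M4 held none, so the line and the medium cannot be told apart where M3 or M4 is compared with M1 or M2. No source says whether the replicates were separate cultures beyond calling them biological, so p-values measure the spread between these libraries.

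ATF4 is a transcription factor whose protein is made mainly when the initiation factor eIF2 is phosphorylated, as happens when amino acids are short or when unfolded protein collects in the ER. It switches on genes for amino acid synthesis, amino acid import and tRNA charging, and, under longer stress, genes such as DDIT3 and CHAC1. The ER response has further arms: IRE1 splices the mRNA of XBP1, and ATF6 is cleaved to an active factor, and both raise chaperones such as HSPA5. ATF4 protein, eIF2 phosphorylation and XBP1 splicing are not read by counts per gene, so the values here are mRNA levels only.

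Some promoters of the members hold the short elements through which these arms are known to act, and a few are printed because the amino acid genes and the ER genes differed in which element they held. Promoter windows (250 bases before to 50 after the start site, RefSeq, GRCh38.p14) were matched for 36 of the 41 members, in 55 windows; NUPR1, ALDH1L2, PSPH, SHMT2 and SLC7A11 were not matched. Both strands were searched. Capitals mark the element, lower case marks 5 flanking bases on each side, and each sequence is written 5′ to 3′ on the strand that holds the element. The first set holds TGATGNAA, the C/EBP-ATF response element bound by ATF4.
ASNS (chr7:97872464-97872481, - strand): aggcaTGATGAAActtcc
SLC7A1 (chr13:29595669-29595686, - strand): actgcTGATGAAAcctgg
GARS1 (chr7:30594840-30594857, - strand): gagcaTGATGAAAtcgcc
SLC1A4 (chr2:64989387-64989404, - strand): ggagaTGATGCAAacggg
CHAC1 (chr15:40953257-40953274, - strand): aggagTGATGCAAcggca
HERPUD1 (chr16:56931961-56931978, - strand): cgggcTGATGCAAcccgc

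The second set holds the ER stress response element of chaperone promoters (CCAAT, any 9 bases, CCACG) or its second form (ATTGG, any 1 base, CCACG).
HSPA5 (chr9:125241386-125241414, - strand): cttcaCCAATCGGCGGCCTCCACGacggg
HSP90B1 (chr12:103930211-103930239, + strand): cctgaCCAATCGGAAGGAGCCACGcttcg
XBP1 (chr22:28800598-28800626, - strand): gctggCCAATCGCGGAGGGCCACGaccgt
SDF2L1 (chr22:21642109-21642129, - strand): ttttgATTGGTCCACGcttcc
HERPUD1 (chr16:56932020-56932040, + strand): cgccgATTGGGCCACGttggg

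TGATGNAA was found in 9 of the 16 amino acid genes with a promoter, in 2 of 10 ATF4 arm genes and in 1 of 10 ER genes, against 4.46% of all 27305 genes in the promoter table. The ER stress response element was found in 5 of 10 ER genes (HSPA5, HSP90B1, CALR, CRELD2 and XBP1) and in none of the other members, against 0.0916% of all genes. Its second form was found in 2 of 10 ER genes, SDF2L1 and HERPUD1, against 0.0696% of all genes, and HERPUD1 was the 1 member that held an element of each set. TGACGTGG, an element bound by XBP1, was in no member window and in 0.927% of all genes. A match is a run of letters only, and these genes are textbook examples of the elements, so the matches describe the promoters and not what was bound in these cells.

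Library totals ran from 69669945 to 107350288 counts, and the mitochondrial share was 4.67% to 6.85% in M1 and M2 and 2.63% to 3.59% in M3 and M4. Epithelial markers such as KRT5 (2837 to 9190 CPM, counts per 1000000 with TMM-scaled library sizes) and CDH1 (126 to 222 CPM) were high in every library. Of 7 matched markers of fibroblasts, endothelium and leukocytes, COL1A2 was at 0 in all libraries and PTPRC, CDH5, PDGFRA and PDGFRB were under 1 CPM; COL1A1 (6.07 to 25.5 CPM) and CD68 (4.03 to 51.4 CPM) were not, and CD68 was higher in M4 than in M1. HRAS, the transfected oncogene of M2, had 154 and 139 CPM in the M1 libraries, 160 and 154 CPM in those of M2, and 269 to 352 CPM in those of M3 and M4; the M2 difference from M1 was not past the threshold (log2 fold change 0.10, adjusted p = 0.736), and counts per gene do not separate the activated allele. The replicates were unequally close: the biological coefficient of variation was 0.0580 in M2, 0.271 in M4, 0.307 in M3 and 0.377 in M1. A supplementary table of the study places the library labelled M1 replicate 2 in M2 and the library labelled M2 replicate 1 in M1. The sample labels are followed here, under which the M2 libraries were the most alike of all pairs (Spearman rho 0.993 across genes, which are not independent), and results were also computed with those libraries exchanged and with both left out. Under the exchange, the submitters' numbering of the libraries would run from M1 to M4 and then again from M1 to M4. Which assignment is right was not tested.

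In M4, members of all 3 groups were called different from M1. For the amino acid genes, the share called was near that of all genes. A gene is called here when its adjusted p is under 0.05 and its level differs by more than 2-fold, a log2 fold change beyond 1 in size (edgeR's quasi-likelihood test, adjusted over all 18431 genes). Against M1, 11 members were called higher and 4 lower in M4, in a comparison where 9.48% of all tested genes were called higher and 11.2% lower. In M3, 3 were called higher and 2 lower (8.02% and 5.51% of all genes), and in M2, 1 higher and 1 lower (2.26% and 1.11%). Against M2, 10 members were called higher and 5 lower in M4 (6.98% and 6.94% of all genes), and 1 higher and 1 lower in M3 (2.95% and 1.2%). Against M3, 4 were called higher and 2 lower in M4 (3.99% and 6.3% of all genes). Counted in either direction, 36.6% of the members were called in M4 against M1 and 36.6% against M2, beside 20.7% and 13.9% of all genes. The shares in M2 against M1 (4.88%), M3 against M1 (12.2%), M3 against M2 (4.88%) and M4 against M3 (14.6%) were near the backgrounds of 3.37%, 13.5%, 4.15% and 10.3%. These comparisons share libraries, so they do not count as separate evidence, and in bulk libraries fewer cells of a kind and less RNA per cell cannot be told apart. In all, 20 members were called in at least 1 comparison, making 45 calls, and 21 were not called in any.

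**Figure D1:**
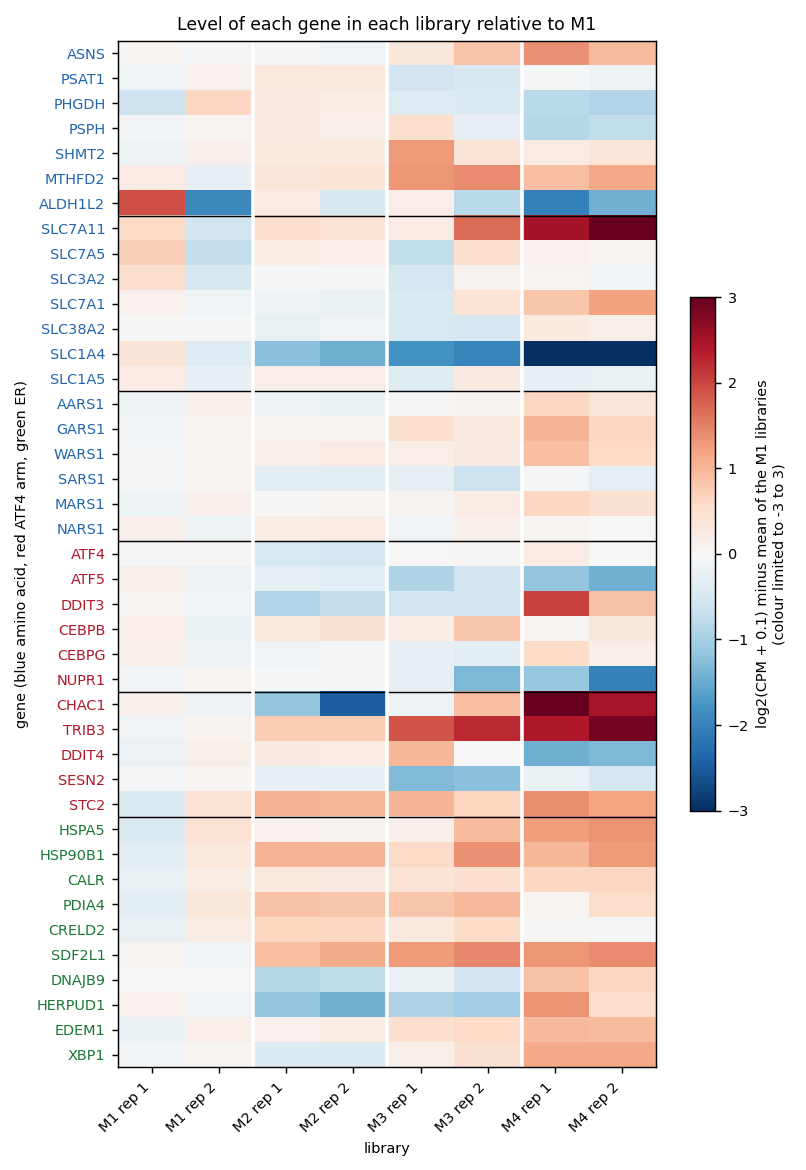
Heat map of the 41 genes (rows, blue amino acid genes, red ATF4 arm, green ER genes) in the 8 libraries (columns). Colour is log2(CPM + 0.1) minus the mean of the M1 libraries, limited to -3 to 3; the M4 columns hold the deepest reds (CHAC1, TRIB3, SLC7A11) and the deepest blue (SLC1A4), and most ER rows are red there.

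Many calls were lost when the doubted libraries were reassigned or when a single library was left out. With M1 replicate 2 and M2 replicate 1 exchanged, 22 of the 45 calls passed; with both left out, 24 passed; and 17 passed whichever single library was left out. No direction reversed. In turn, 27 results that were not called, in 17 genes, passed under at least 1 of the other fits, and 6 of those genes were among the 21 with no call. The 9 calls that passed under every fit tried were TRIB3 and XBP1 in M4 against M1 and against M2, DDIT3 in M4 against M2 and M3, CHAC1 in M4 against M2, and SLC1A4 and ATF5 in M4 against M1. On the adjusted p alone, the members higher and lower numbered 1 and 1 in M2 against M1 (3.37% and 1.46% of all genes), 5 and 6 in M3 against M1 (12.9% and 8.33%), 20 and 5 in M4 against M1 (15.6% and 15.8%), 3 and 2 in M3 against M2 (3.98% and 1.56%), 17 and 6 in M4 against M2 (11.1% and 11.1%), and 10 and 3 in M4 against M3 (7.05% and 9.72%). Whether the libraries of M4 and M1 overlapped is a weaker reading: 22 members had both M4 libraries above both M1 libraries and 7 had both below, where 33.5% and 33.9% of all genes did.

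ATF4 itself (ENSG00000128272, chr22:39915700-39918688 in GRCh37) was measured at 537 and 561 CPM in M1, 399 and 386 in M2, then 551 and 561 in M3, and 654 and 556 in M4. The M2 libraries were the lowest, and the M1, M3 and M4 libraries overlapped. ATF4 was not called in any of the 6 comparisons. Its log2 fold change was 0.14 ± 0.15 (SE) in M4 against M1 (adjusted p = 0.504) and 0.62 ± 0.15 in M4 against M2 (adjusted p = 0.0214), a 1.54-fold difference that stayed under the 2-fold limit.

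Of the other 5 factors of the ATF4 arm, DDIT3 was called higher and ATF5 and NUPR1 lower in M4 against M1, and CEBPB and CEBPG were not called. DDIT3 (ENSG00000175197, chr12:57910371-57915520), which encodes the pro-apoptotic factor CHOP, was at 9.22 and 8.22 CPM in M1, 4.72 and 5.27 in M2, then 5.77 and 5.92 in M3, and 36.4 and 16.1 in M4. Both M4 libraries stood above the other 6, though they were themselves 2.26-fold apart. DDIT3 was called higher in M4 against M1 (log2 fold change 1.59 ± 0.35, adjusted p = 0.0124), against M2 (2.39 ± 0.36, adjusted p = 0.00426) and against M3 (2.17 ± 0.36, adjusted p = 0.00927). The call against M1 was lost without M1 replicate 2 or M4 replicate 1 (log2 fold change 0.89 to 1.51, adjusted p 0.0506 to 0.0593) and with both doubted libraries left out (adjusted p = 0.0885). DDIT3 shares 355 of its 1307 exon bases (27.2%) with MARS1 on the opposite strand, and the counting is not stated to use strand, so its level is uncertain to that extent; MARS1 was at 174 to 194 CPM in M4 and 114 to 140 in M1.

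ATF5 and NUPR1 were lower in M4. ATF5 (ENSG00000169136, chr19:50431959-50437192), a factor related to ATF4 and translated under the same control, was at 72.2 and 55.8 CPM in M1, 53.0 and 50.9 in M2, then 33.8 and 43.0 in M3, and 28.0 and 23.2 in M4. It was lowest in M4 (log2 fold change -1.32 ± 0.19 against M1, adjusted p = 0.00237, and -1.02 ± 0.19 against M2, adjusted p = 0.00922); the latter was lost without either M2 replicate or M4 replicate 2 (-1.05 to -0.87, adjusted p 0.0623 to 0.0749) and under the exclusion of both doubted libraries (-0.99, adjusted p = 0.0593), and it fell just under the fold limit with DESeq2, with its size factors alone and with the stricter count filter. ATF5 shares 19.5% of its exon bases with NUP62 on the opposite strand. NUPR1, a small chromatin-bound stress regulator, was at 116 and 130 CPM in M1, 120 and 117 in M2, then 104 and 48.0 in M3, and 55.7 and 29.9 in M4. Its fall in M4 was called against M1 (-1.52 ± 0.39, adjusted p = 0.0222) and against M2 (-1.47 ± 0.39, adjusted p = 0.033). The first was lost without M1 replicate 2 or M4 replicate 2 (adjusted p 0.0686 to 0.118), with the doubted libraries exchanged (0.0607) or left out (0.127), and the second without either M2 replicate or M4 replicate 2 (adjusted p 0.139 to 0.15) or both doubted libraries (0.156). CEBPB and CEBPG, partners of ATF4 in binding its element, were not called anywhere, with means across the lines of 34.6 to 50 and 9.83 to 15.5 RPKM (CPM per 1000 bases of transcript).

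The stress and feedback genes held both rises and falls, and CHAC1 among them had the largest rise of the members in M4 against each other line. TRIB3 (ENSG00000101255, chr20:343479-378203), a pseudokinase that ATF4 and CHOP switch on and that feeds back on them, was at 36.8 and 42.2 CPM in M1, 67.3 and 66.6 in M2, then 147 and 187 in M3, and 210 and 290 in M4. Under the sample labels the lines stood in the order M1, M2, M3, M4 with no overlap between any of them. With the doubted libraries exchanged, M1 and M2 would overlap. It was called higher in M3 against M1 (log2 fold change 2.08 ± 0.20, adjusted p = 0.00099), in M4 against M1 (2.66 ± 0.21, adjusted p = 0.000244), in M3 against M2 (1.32 ± 0.20, adjusted p = 0.0111) and in M4 against M2 (1.90 ± 0.20, adjusted p = 0.00117). The neighbouring steps M1 to M2 (0.76 ± 0.19, adjusted p = 0.0687) and M3 to M4 (0.58 ± 0.19, adjusted p = 0.0779) did not pass. With the doubted libraries exchanged, M3 was called neither against M1 (1.68, adjusted p = 0.077) nor against M2 (1.62, adjusted p = 0.0879), and the M3 call against M2 was also lost without either M2 replicate (adjusted p 0.135 to 0.137) and with both doubted libraries out (0.0993).

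CHAC1 (ENSG00000128965, chr15:41245160-41248710), an enzyme that breaks down glutathione and a target of ATF4, was low in 3 lines and raised in M4. It was at 1.31 and 1.04 CPM in M1, 0.462 and 0.128 in M2, then 1.04 and 2.27 in M3, and 17.7 and 6.87 in M4, and the lowest of these values rests on 9 counts. Both M4 libraries were above the other 6 libraries and 2.55-fold apart. Its log2 fold change in M4 was 3.39 ± 0.70 against M1 (adjusted p = 0.00971), 5.34 ± 0.78 against M2 (adjusted p = 0.00387) and 2.89 ± 0.68 against M3 (adjusted p = 0.028). The calls against M1 and M3 were lost without M4 replicate 1 (2.56 and 2.05) or with the doubted libraries exchanged (adjusted p = 0.0597 and 0.133). Against M3 the exchange left the log2 fold change at 2.89. The call against M1 was also lost without M1 replicate 2 (3.23). That against M3 was also lost without either M3 replicate (2.42 and 3.56) and with limma-voom (adjusted p = 0.0981).

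DDIT4 and SESN2 encode inhibitors of mTORC1, the kinase complex that drives growth when amino acids are plentiful, and each had its low point in a different carcinoma line. DDIT4 was at 1825 and 2324 CPM in M1, 2471 and 2440 in M2, then 4077 and 2031 in M3, and 749 and 808 in M4. Both M4 libraries were below all others, and the log2 fold change in M4 was -1.41 ± 0.31 against M1 (adjusted p = 0.0128), -1.66 ± 0.32 against M2 (adjusted p = 0.01) and -1.97 ± 0.32 against M3 (adjusted p = 0.00874). All 3 calls were lost without either M4 replicate, that against M1 also without M1 replicate 2 and that against M2 without either M2 replicate (adjusted p 0.0567 to 0.0806, 0.059 to 0.0766 and 0.0517 to 0.0723 in that order). Those against M1 and M2 were also lost with both doubted libraries left out (0.0984 and 0.0579). SESN2 was at 38.6 and 42.4 CPM in M1, 33.8 and 33.1 in M2, then 16.2 and 16.8 in M3, and 35.2 and 28.1 in M4. It was called lower in M3 against M1 (-1.30 ± 0.16, adjusted p = 0.00195) and against M2 (-1.02 ± 0.15, adjusted p = 0.0121). With the doubted libraries exchanged, both were past the fold limit and neither passed on p (adjusted p = 0.057 and 0.0511). The M2 comparison also failed with both of them out (0.118) and without either M2 replicate or M3 replicate 1 (-1.03 to -0.99, adjusted p 0.0444 to 0.141). STC2, which encodes a secreted glycoprotein, was at 18.9 and 33.9 CPM in M1, 53.0 and 50.9 in M2, then 51.2 and 39.6 in M3, and 66.5 and 57.6 in M4. Its rise was called in M4 against M1 (1.23 ± 0.27, adjusted p = 0.0121) and was lost without M1 replicate 1 or M4 replicate 1 (0.89 to 1.13, adjusted p 0.0208 to 0.0623) and under the exchange (0.79, adjusted p = 0.3).

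**Figure D2:**
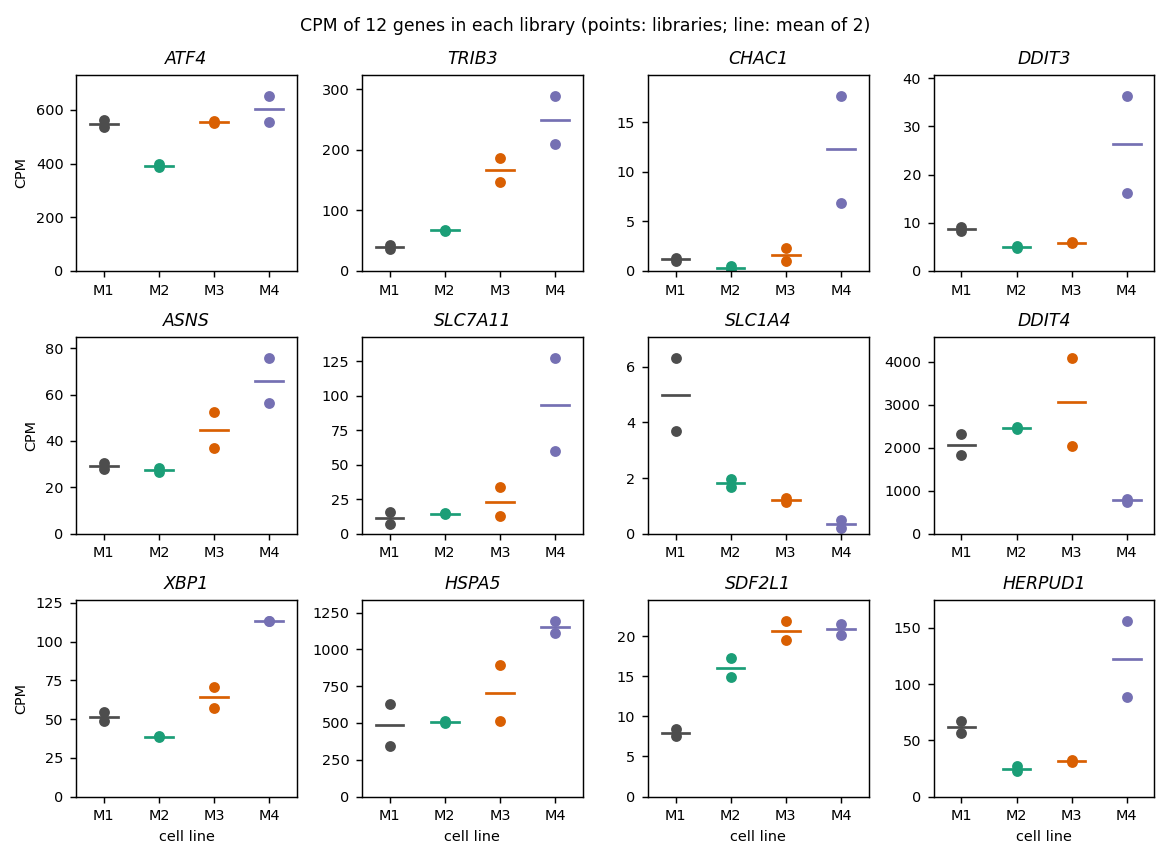
CPM of 12 of the genes (y axis, from 0) in the 4 lines (x axis); points are libraries and bars the mean of 2. TRIB3 rises from 36.8 and 42.2 CPM in M1 to 210 and 290 in M4, CHAC1 and DDIT3 are high in M4 alone, DDIT4 and SLC1A4 are lowest in M4, and ATF4 lies between 386 and 654 CPM in every library.

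Among the 7 genes of amino acid synthesis and one-carbon metabolism, ASNS was called higher in M4 and no gene of serine synthesis was called higher. ASNS (ENSG00000070669, chr7:97480989-97501854), which makes asparagine, was at 30.4 and 27.9 CPM in M1, 28.5 and 26.8 in M2, then 37 and 52.7 in M3, and 75.6 and 56.4 in M4. It was called higher in M4 against M1 (1.18 ± 0.21, adjusted p = 0.00552) and against M2 (1.26 ± 0.21, adjusted p = 0.00642). Without M4 replicate 1 the first fell to a log2 fold change of 0.96 (adjusted p = 0.0353), and with both doubted libraries out it did not pass (adjusted p = 0.0586). The second did not pass without either M2 replicate (adjusted p 0.0566 to 0.0668) or without both doubted libraries (0.0536).

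MTHFD2, the mitochondrial one-carbon enzyme, was at 92.8 and 65.6 CPM in M1, 101 and 104 in M2, then 197 and 207 in M3, and 145 and 172 in M4. Both M3 libraries were the highest. MTHFD2 was called higher in M3 against M1 (1.35 ± 0.19, adjusted p = 0.00318; 1.06, adjusted p = 0.0885 under the exchange), and in M4 it lay just under the fold limit (1.00 ± 0.19, adjusted p = 0.00632). PSPH, the last enzyme of serine synthesis, was at 28.9 and 32.7 CPM in M1, 37.2 and 34.6 in M2, then 43.2 and 26.0 in M3, and 16.9 and 18.3 in M4. It was called lower in M4 against M2 (-1.03 ± 0.23, adjusted p = 0.019), a call lost without any single M2 or M4 replicate (-1.08 to -0.97, adjusted p 0.0776 to 0.12), under the exchange (adjusted p = 0.062) and without both doubted libraries (0.115). PHGDH, which opens the serine pathway, was at 91.2 and 214 CPM in M1, 168 and 164 in M2, then 107 and 103 in M3, and 80.2 and 76.4 in M4. Both M4 libraries were the lowest. Its log2 fold change in M4 was -0.96 ± 0.33 against M1 (adjusted p = 0.0617) and -1.08 ± 0.33 against M2 (adjusted p = 0.0539), so it was not called. The M2 comparison did pass under the exchange (-1.27, adjusted p = 0.0331), without both doubted libraries (-1.07, adjusted p = 0.0257), with DESeq2, limma-voom and no filter on low counts, and with only the M2 and M4 libraries in the fit, and without M1 replicate 1 PHGDH passed as lower in M4 and in M3 against M1 (-1.43 and -1.03, adjusted p = 0.00105 and 0.00608). PSAT1 was not called, with -0.11 ± 0.14 in M4 against M1. SHMT2 was not called either, with 547 and 298 CPM in the M3 libraries and 203 to 289 CPM elsewhere, and it passed as higher in M3 against M1 without M3 replicate 2 (1.28, adjusted p = 0.00654). ALDH1L2 was at 2.41 CPM in M1 replicate 1 and at or under 0.678 CPM in the other 7 libraries, so its log2 fold change of -3.63 ± 1.38 in M4 against M1 (adjusted p = 0.0819) turned on 1 library; it passed without M1 replicate 2 (-4.59, adjusted p = 0.0078), without both doubted libraries (-4.59, adjusted p = 0.0118), with DESeq2 and with no filter on low counts.

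In M4 against M1, the transporters held the largest rise and the largest fall of the amino acid genes. SLC7A11 (ENSG00000151012, chr4:139085251-139163503), the cystine-glutamate exchanger that supplies cysteine for glutathione, was at 15.7 and 7.03 CPM in M1, 14.8 and 14 in M2, then 12.6 and 34.0 in M3, and 60.0 and 127 in M4. Both M4 libraries were above the other 6, with a 2.11-fold spread between them and a 2.69-fold spread in M3. The log2 fold change in M4 was 3.04 ± 0.61 against M1 (adjusted p = 0.0098) and 2.69 ± 0.60 against M2 (adjusted p = 0.0198). Without M4 replicate 2 the first was 2.42 (adjusted p = 0.0536) and without both doubted libraries 2.57 (adjusted p = 0.104). The second was lost in the same fits and without either M2 replicate (2.08 to 2.73, adjusted p 0.0941 to 0.159).

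SLC7A1, the importer of arginine and lysine, was at 83.8 and 71.1 CPM in M1, 69.7 and 66.9 in M2, then 57.2 and 103 in M3, and 138 and 178 in M4. M4 was the highest line, called against M1 (1.03 ± 0.27, adjusted p = 0.023) and against M2 (1.21 ± 0.27, adjusted p = 0.0176). The first was lost without either M1 replicate or M4 replicate 2 (0.86 to 1.17, adjusted p 0.0536 to 0.13), under the exchange (adjusted p = 0.0629) and without both doubted libraries (0.154); the second without either M2 replicate or M4 replicate 2 (adjusted p 0.0958 to 0.123) and without both (0.102). SLC1A4 (ENSG00000115902, chr2:65215611-65250999), a carrier of alanine, serine and cysteine, was at 6.30 and 3.70 CPM in M1, 1.95 and 1.68 in M2, then 1.29 and 1.13 in M3, and 0.502 and 0.218 in M4, the lowest on 17 counts. Under the sample labels the lines stood in the order M1, M2, M3, M4 from high to low with no overlap, the opposite order to TRIB3. Under the exchange M1 and M2 would overlap here too. It was called lower in M3 against M1 (-2.05 ± 0.46, adjusted p = 0.0197) and in M4 against M1 (-3.77 ± 0.50, adjusted p = 0.00173), M2 (-2.31 ± 0.48, adjusted p = 0.0138) and M3 (-1.72 ± 0.48, adjusted p = 0.0451). The M3 call was lost without M1 replicate 1 or either M3 replicate (adjusted p 0.0683 to 0.0918) and under the exchange (0.241). The M4 call against M2 was lost without either M2 replicate or M4 replicate 2 (0.0651 to 0.0867) and without both doubted libraries (0.0681), and that against M3 without any single M3 or M4 replicate (0.0602 to 0.171), under the exchange (0.193), without both (0.0749), with limma-voom (0.138) and with only the M3 and M4 libraries in the fit (0.101).

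The other 4 transporters were not called in any comparison. SLC7A5 and SLC3A2 encode the chains of the large neutral amino acid exchanger, and their replicates disagreed: SLC7A5 read 1183 and 440 CPM in the M1 libraries and 435 and 1001 in those of M3, and SLC3A2 485 and 247 in the former and 243 and 373 in the latter. SLC38A2 ran from 277 to 479 CPM and the glutamine carrier SLC1A5 from 180 to 281 CPM over the 8 libraries. For SLC7A5, SLC3A2 and SLC1A5 the widest spread within a line was larger than that between the means of the lines. SLC38A2 replicates were 1.03- to 1.10-fold apart, with M4 the highest line and M3 the lowest, and it was higher in M4 than in M3 by less than the fold limit (0.71 ± 0.14, adjusted p = 0.0154).

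None of the 6 tRNA synthetases was called in any comparison by edgeR, DESeq2 or limma-voom, and most lay slightly higher in M4. Against M1, 4 of 6 had an adjusted p under 0.05 (and the same number an unadjusted p under 0.05) and were higher in M4, a rule that 15.6% of all tested genes met: GARS1 (0.83 ± 0.17, adjusted p = 0.00916), WARS1 (0.76 ± 0.14, adjusted p = 0.00679), MARS1 (0.53 ± 0.15, adjusted p = 0.0293) and AARS1 (0.49 ± 0.16, adjusted p = 0.044). SARS1 and NARS1 had log2 fold changes of -0.17 ± 0.17 and 0.03 ± 0.16. The median of the 6 was 0.51, beside -0.02 for all genes tested. GARS1 read 138 and 157 CPM in the M1 libraries and 297 and 228 in those of M4, the widest gap of the 6, and it passed without M4 replicate 2 (1.03, adjusted p = 0.0128).

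The ER genes were higher in M4 more often than not. HSPA5 (ENSG00000044574, chr9:127997132-128003661), the ER Hsp70 chaperone BiP, was at 344 and 628 CPM in M1, 513 and 498 in M2, then 515 and 893 in M3, and 1113 and 1192 in M4. The M4 libraries stood above all others, and the M1 libraries overlapped those of M2 and of M3. HSPA5 was called higher in M4 against M1 (1.24 ± 0.33, adjusted p = 0.025) and against M2 (1.19 ± 0.33, adjusted p = 0.0381). The first was lost without M1 replicate 1 or either M4 replicate (0.89 to 1.30, adjusted p 0.0782 to 0.103), and the second without any single M2 or M4 replicate (adjusted p 0.119 to 0.19), under the exchange (0.0796) and without both doubted libraries (0.11). HSP90B1, the ER Hsp90 chaperone, was at 322 and 504 CPM in M1, 835 and 821 in M2, then 603 and 1046 in M3, and 799 and 972 in M4, so that M1 was below the other 3 lines. Its rise passed in M4 against M1 (1.10 ± 0.30, adjusted p = 0.0283), and the values of M2 (1.01 ± 0.30, adjusted p = 0.103) and M3 (1.00 ± 0.30, adjusted p = 0.0521) did not. The M4 call was lost without M1 replicate 1 or either M4 replicate (0.83 to 1.24, adjusted p 0.067 to 0.137), under the exchange (0.62, adjusted p = 0.459) and without both doubted libraries (1.46, adjusted p = 0.0536).

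SDF2L1, a partner of BiP in the ER lumen, was at 8.36 and 7.56 CPM in M1, 14.9 and 17.2 in M2, then 19.5 and 21.8 in M3, and 20.1 and 21.5 in M4. It was the 1 member called higher than M1 in each of the other lines: M2 (1.01 ± 0.17, adjusted p = 0.0183), M3 (1.38 ± 0.17, adjusted p = 0.00212) and M4 (1.39 ± 0.17, adjusted p = 0.00121). All 3 calls were lost under the exchange (0.09, 0.83 and 0.84, adjusted p = 1, 0.343 and 0.238), which places a library of 7.56 CPM in M2. The M2 call was also lost without M1 replicate 2 or either M2 replicate (0.90 to 1.11, adjusted p 0.0482 to 0.228) and without both doubted libraries (adjusted p = 0.209), and it lay just under the fold limit with DESeq2, its size factors alone, limma-voom (0.99) and the stricter count filter.

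XBP1, DNAJB9 and HERPUD1 had their lowest values in M2 and their highest in M4. XBP1 (ENSG00000100219, chr22:29190543-29196585), the factor that IRE1 activates by splicing, was at 48.7 and 54.3 CPM in M1, 38.8 and 38.3 in M2, then 57.2 and 70.8 in M3, and 113 and 113 in M4. It was called higher in M4 against M1 (1.14 ± 0.15, adjusted p = 0.00149) and against M2 (1.55 ± 0.15, adjusted p = 0.000858), and against M3 it was under the fold limit (0.82 ± 0.14, adjusted p = 0.0112). DNAJB9, a cochaperone of BiP, was at 12.3 and 12 CPM in M1, 6.65 and 7.09 in M2, then 10.5 and 8.12 in M3, and 22.6 and 18.6 in M4. It was called higher in M4 against M2 (1.59 ± 0.21, adjusted p = 0.00245) and M3 (1.15 ± 0.20, adjusted p = 0.0112), and both calls were lost under the exchange (adjusted p = 0.1 and 0.126). Under the exchange the log2 fold change against M3 stayed at 1.15. The M3 comparison was also lost without M3 replicate 2 or M4 replicate 1 (0.97 to 1.01, adjusted p 0.0316 to 0.0731).

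HERPUD1, a membrane protein of ER-associated degradation and the 1 member whose promoter held elements of both sets, was at 66.8 and 56.1 CPM in M1, 26.8 and 22.9 in M2, then 32.8 and 30.3 in M3, and 156 and 88.4 in M4. M2 and M3 were the low lines and M4 the high one, with no overlap between M1 and any other line under the sample labels. With the doubted libraries exchanged, M1 would overlap M2 and M3. It was called lower in M2 against M1 (-1.31 ± 0.26, adjusted p = 0.0317) and higher in M4 against M2 (2.30 ± 0.26, adjusted p = 0.00166) and M3 (1.95 ± 0.26, adjusted p = 0.00495); against M1 it was just under the fold limit in M4 (0.99 ± 0.25, adjusted p = 0.0221). All 3 calls were lost under the exchange (adjusted p = 1, 0.0926 and 0.0874). Of these, M4 against M3 holds neither exchanged library, and its log2 fold change stayed at 1.95. The M2 call was also lost without M1 replicate 1 or either M2 replicate (-1.42 to -1.18) and without both doubted libraries (-1.54).

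The other 4 ER genes were not called in any comparison, though 2 of them passed when M1 replicate 2 was absent. EDEM1, which feeds misfolded glycoproteins to degradation, lay just under the limit in M4 against M1 (0.94 ± 0.16, adjusted p = 0.00443), with 112 and 111 CPM in M4 against 49.6 and 66.3 in M1; it passed without M1 replicate 2 (1.16, adjusted p = 0.00345) and without both doubted libraries (1.16, adjusted p = 0.0177). CALR, a lectin chaperone, had a log2 fold change of 0.60 ± 0.18 (adjusted p = 0.0361) in the same comparison. PDIA4 and CRELD2 followed M4 least: PDIA4, a disulfide isomerase, had its high values in M2 and M3 (246 to 275 CPM, against 149 and 201 in M4). PDIA4 passed as higher in M3 against M1 without M1 replicate 2 (1.26, adjusted p = 0.0133) and without both doubted libraries (1.26, adjusted p = 0.0372), and in M2 against M1 without M1 replicate 2 (1.20, adjusted p = 0.0347). CRELD2 was at 36.3 and 36.1 CPM in M2 and at 23.8 and 22.9 in M4.

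**Figure D3:**
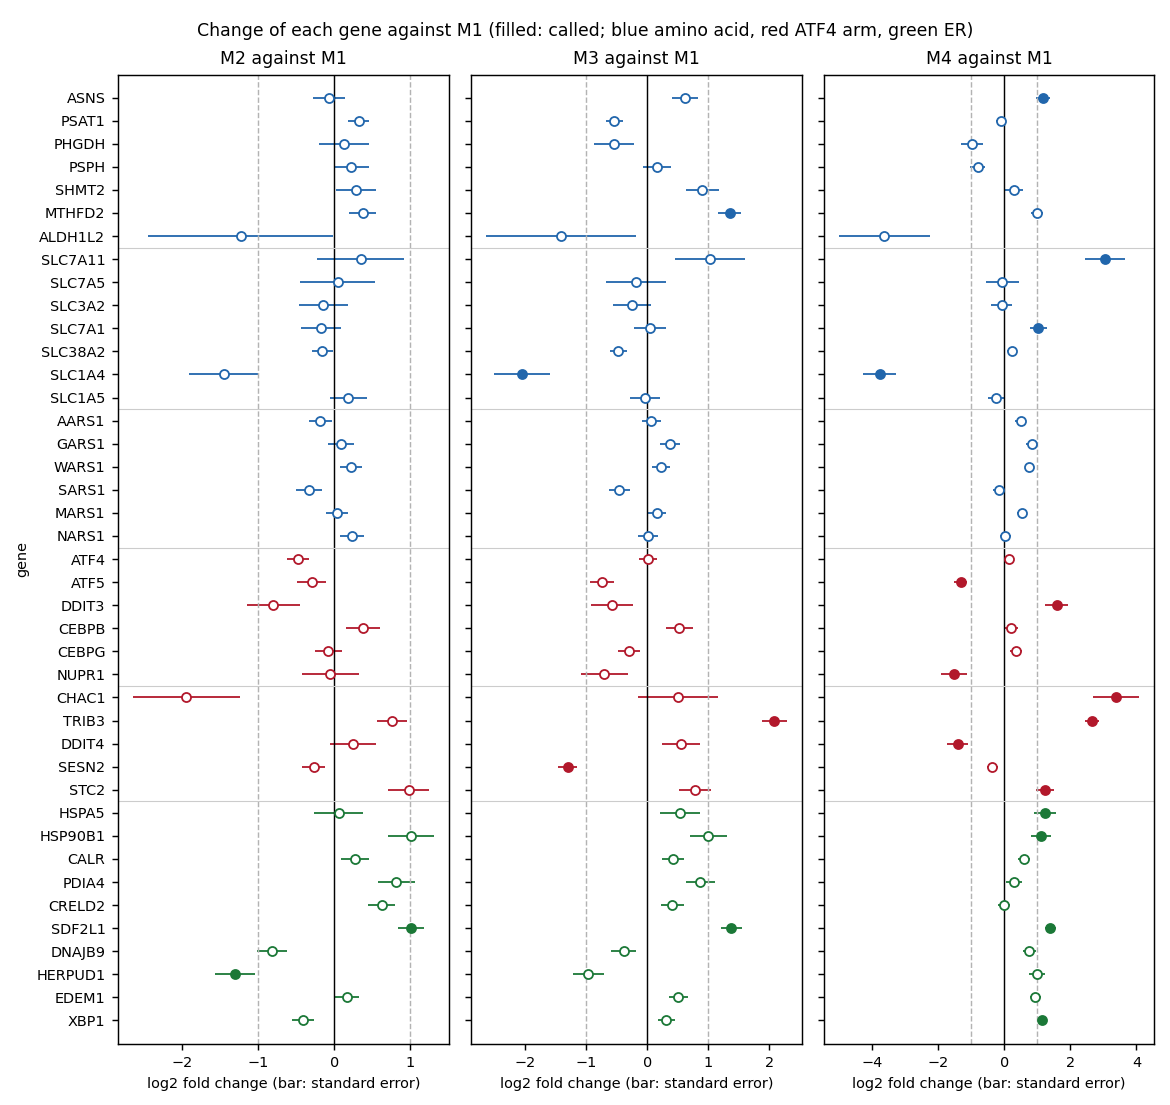
Log2 fold change of each gene (rows; blue amino acid, red ATF4 arm, green ER) in M2, M3 and M4 against M1, with the standard error as a bar; filled points are called and dashed lines mark a 2-fold change. The x axes differ between panels. M4 holds 15 filled points, M3 5 and M2 2.

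Set side by side, the ER genes lay higher than the amino acid genes in M4 against M1. Of 10 ER genes, 4 were called higher and 0 lower by edgeR (5 and 0 by DESeq2, 4 and 0 by limma-voom), and 8 were higher and 0 lower on the adjusted p alone as on the unadjusted p, beside 9.48% of all genes called higher and 15.6% higher on the adjusted p. Of 20 amino acid genes, 3 were called higher (SLC7A11, ASNS and SLC7A1) and 1 lower (SLC1A4). Counted in either direction, the share of amino acid genes called was near the background of 20.7% of all genes. With the adjusted p alone, 8 amino acid genes were higher and 2 lower. The median log2 fold change was 0.97 for the ER genes (range -0.01 to 1.39) and 0.13 for the amino acid genes (range -3.77 to 3.04), beside -0.02 for all genes tested, whose interquartile range ran from -0.72 to 0.55. The difference of the medians, amino acid minus ER, was -0.83, and it was -0.42 without M1 replicate 1. With the ER genes limited to the 7 folding factors, their median was 0.76 and the difference -0.63. The 11 other genes of the ATF4 arm had a median of 0.20 with 4 called higher and 3 lower. With 10 and 20 genes chosen by name, and with earlier results of these data known, these medians carry no test.

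The gap was smaller in the other comparisons. In M3 against M1 the medians were 0.03 for the amino acid genes and 0.47 for the ER genes, and in M2 against M1 they were 0.07 and 0.22. Against M2, they were -0.08 and 0.34 in M3 and 0.12 and 0.58 in M4, and in M4 against M3 they were 0.23 and 0.31. The ER median was the higher in all 6 comparisons under the labels. In M4 against M3 the order turned when the ER genes were limited to the 7 folding factors (difference 0.13). It also turned there without M4 replicate 2 (0.02), and in M2 against M1 without M1 replicate 1 (0.13), a library whose absence brought the M3 difference to -0.05. By library, the ER median relative to M1 was -0.22 and 0.22 in the M1 libraries, 0.23 and 0.24 in M2, then 0.35 and 0.56 in M3, and 0.98 and 0.78 in M4, on the scale of log2(CPM + 0.1). The amino acid median was -0.05 to 0.20 in all 8 libraries.

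**Figure D4:**
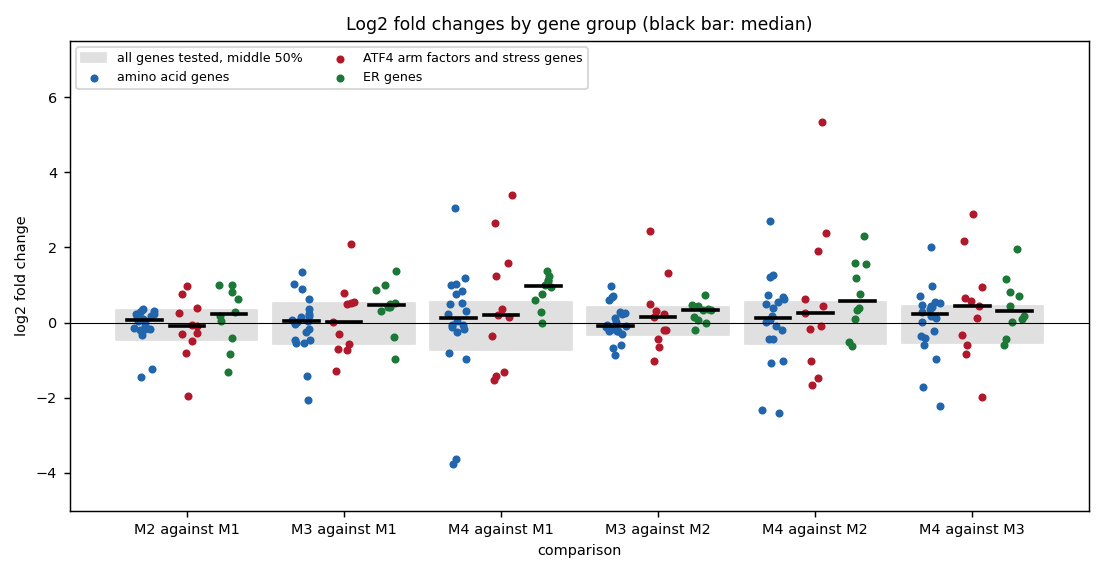
Log2 fold changes of the members (y axis; points are genes, black bars medians) by group in the 6 comparisons (x axis); the grey box is the interquartile range of all 18431 genes tested. In M4 against M1 the ER points lie between -0.01 and 1.39 with a median of 0.97, above the grey box, while the amino acid median of 0.13 lies inside it.

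Per length, the members covered a wide range of abundance. The mean level over the 4 lines was highest for DDIT4 (1016 RPKM), ATF4 (370.4), CALR (308.1), HSP90B1 (265.2) and HSPA5 (181.6), and lowest for CHAC1 (2.53), SLC1A4 (0.459) and ALDH1L2 (0.0784). The neighbours CHAC1 and SLC7A11 (3.70) each had most of their level from M4, at 8.07 and 9.69 RPKM. In M4, HSP90B1, CALR and HSPA5 were at 318.4, 369.5 and 294.0 RPKM and ATF4 at 426.4, so that DDIT4 (378.5) was no longer the highest of the members there. The length of DDIT4 came from its merged exons and that of the others from the canonical transcript.

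Lists of further genes of the same pathways, in which no member stands, put the members in context. Of 13 stress sensors and regulators of eIF2, 3 were called higher in M4 against M1 and 0 lower, beside 9.48% and 11.2% of all genes: ATF3, a stress factor under ATF4 (5.03 ± 0.43, adjusted p = 0.000344), PPP1R15A, the phosphatase subunit that reverses eIF2 phosphorylation (1.81 ± 0.28, adjusted p = 0.00318), and EIF2AK3, the ER kinase PERK (1.13 ± 0.20, adjusted p = 0.00537). ATF3 was at 1.92 and 2.38 CPM in M1, 1.72 and 1.65 in M2, then 5.73 and 2.43 in M3, and 83.1 and 57.8 in M4. Against M2, 1 of the 13, EIF2AK3, was called higher in M3 by edgeR (2.95% of all genes), and DESeq2 called 2 higher. None of the 13 was called in M2 or M3 against M1 by edgeR, DESeq2 or limma-voom. On the adjusted p alone, 5 were higher and 1 lower in M3 (12.9% and 8.33% of all genes), and 0 in either direction in M2 (3.37% and 1.46%). At an unadjusted p under 0.05, 2 were higher and 2 lower in M2 and 6 higher and 2 lower in M3. The share of all genes under that rule is not given here. Of 16 further targets of ATF4, 15 were tested (SLC7A3 was at 0 counts); 3 were called higher and 3 lower in M3 (8.02% and 5.51% of all genes), and 2 higher and 1 lower in M4 (9.48% and 11.2% of all genes), so that the share called in M4 was near the background of 20.7%. The largest changes were in CBS, the first enzyme of transsulfuration (4.82 ± 0.55 in M3, adjusted p = 0.00157), GDF15, a secreted stress cytokine (3.90 ± 0.40 in M4, adjusted p = 0.000625), and JDP2, a repressor of the AP-1 family (-3.42 ± 0.41 in M4, adjusted p = 0.00117, and -2.77 ± 0.40 in M3, adjusted p = 0.00377). GDF15 was at 163 and 156 CPM in M4 and at 4.55 to 15.5 in the other libraries, while CBS was at 3.69 and 4.99 CPM in M3 and at or under 0.619 elsewhere.

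Of 14 further cytosolic tRNA synthetases, none was called in M2, M3 or M4 against M1 by edgeR, DESeq2 or limma-voom. In M4, 3 were higher and 1 lower on the adjusted p alone (15.6% and 15.8% of all genes). On an unadjusted p under 0.05, 7 were higher and 1 lower, again without a share over all genes. Their median log2 fold change in M4 against M1 was 0.27, beside 0.51 for the 6 members. Of 21 further ER folding and degradation genes, 20 were tested. By edgeR, 4 were called higher in M3 and 3 in M4 (8.02% and 9.48% of all genes), with 0 lower in either by edgeR, DESeq2 or limma-voom. On the adjusted p alone, 1 was lower in each (8.33% and 15.8% of all genes). The largest were ERO1A, the ER oxidase (2.06 ± 0.21 in M3, adjusted p = 0.00124, and 1.43 ± 0.21 in M4, adjusted p = 0.00256), DNAJB11, a BiP cochaperone (1.37 ± 0.18 in both, adjusted p = 0.00272 and 0.00165), and PDIA6, a disulfide isomerase (1.20 ± 0.20 in M3, adjusted p = 0.00614). Their median was 0.50 in M3 and 0.51 in M4, about the level of the ER members in M3 (0.47) and below them in M4 (0.97). Of 11 cytosolic heat shock genes, which answer to another stress pathway, 2 were called higher in M4 (9.48% of all genes): HSP90AA1 (1.18 ± 0.24, adjusted p = 0.00836; also 1.42 ± 0.24 in M3 and 1.54 ± 0.24 in M2) and HSPA1A (1.41 ± 0.25, adjusted p = 0.00552), which has a near-identical copy in HSPA1B and is uncertain for that reason. Their median in M4 was 0.53.

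**Figure D5:**
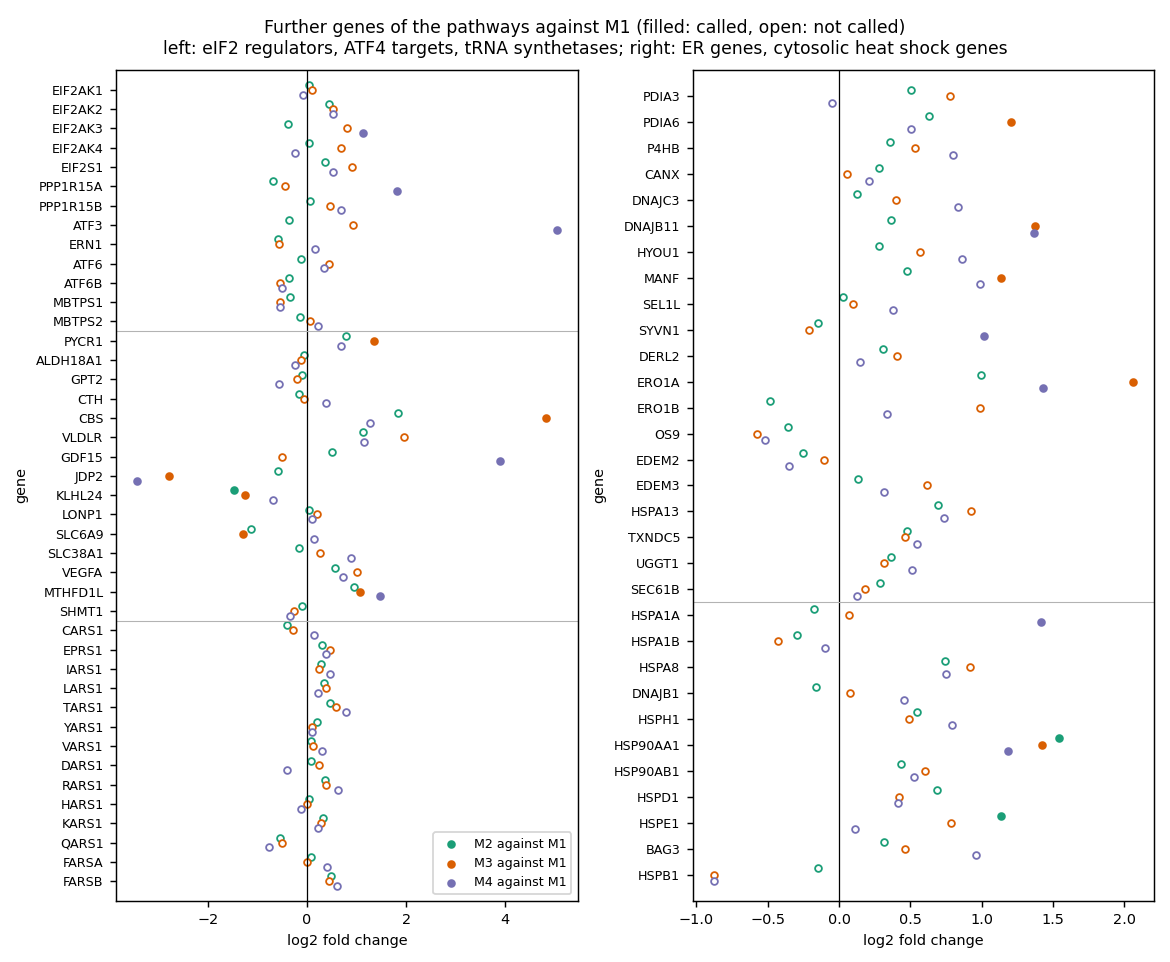
Log2 fold change against M1 (x axes, with different ranges in the 2 panels) of the further pathway genes that were tested, in M2, M3 and M4; filled points are called. On the left ATF3 (5.03) and GDF15 (3.90) in M4 and CBS (4.82) in M3 lie farthest to the right and JDP2 farthest to the left; on the right most ER genes lie above 0.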

How the data were processed

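RNA-seq of M1 to M4, 2 replicates each, was read from 1 deposited table. It holds expected counts, which RSEM estimated for the authors for each gene of GENCODE v19 from paired-end reads of poly A+ RNA, after Trimmomatic and STAR (hg19); the submitters' processing notes also name Picard. Versions and the use of strand are not given in the sources used here. The deposited values are not normalized, and 12.8% are not whole; they were rounded. Symbols, coordinates and lengths came from GENCODE release 44 on GRCh37, which listed 94.7% of the genes with a count. Promoters came from RefSeq on GRCh38.p14.

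edgeR 4.0.16 in R 4.3.3 gave the tests (robust quasi-likelihood F test on TMM-scaled counts after filterByExpr). The 8 libraries were fitted together with a coefficient for each line and share 1 estimate of the spread. The close M2 libraries therefore also enter the p-values of comparisons that do not hold M2. Benjamini-Hochberg adjustment ran over 18431 genes, and a call needed an adjusted p below 0.05 and a log2 fold change beyond 1 in size. The F statistic gave the SE. Every test rests on 2 replicates a line, and low counts add counting error for the least abundant genes. Alternatives were DESeq2 1.42.0 and its size factors, limma-voom (limma 3.58.1), other filters, a replicate block, only the 2 lines compared, the adjusted p alone, the doubted libraries exchanged or left out, each library left out, and the ER folding factors alone. Python 3.11.15 with pandas 2.3.3, numpy 2.4.6 and matplotlib 3.10.9 did the rest. The fit was tested on simulated data.

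The members and lists were chosen with earlier results of these data known, so lists are described by counts and medians without a test. Values per library are given for ATF4, XBP1, HSPA5 and each member called in at least 1 comparison; of other lists, up to 3 genes called in M3 or M4 against M1 with the largest change are named. Replicate numbers do not pair libraries across lines by any label. Pseudogene copies of members held few counts.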

Additional observations from a re-analysis of the deposited data

How the results depend on the processing

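Of the 45 member calls, 9 passed under all alternatives run and 0 reversed; among the 41 genes in 6 comparisons, the replicate block changed 2 results, both to a call, and lost 0 (12 members called higher in M4 against M1 and 5 in M4 against M3). Under the sample labels, the correlations between lines of the deviations of replicate 1 from replicate 2 ran from -0.03 to 0.15, the largest for M3 with M4. They were not computed with the doubted libraries exchanged, so pairing along the submitters' numbering was not tested. Where results moved below, why they moved was not tested. The adjusted p alone and the ER folding factors alone change the rule or the list itself, and the exchange leaves the libraries of M4 against M3 as they were. Differences of medians are amino acid minus ER. Counts below are of members called higher and lower, where they moved by over 1.5 times. In M2 against M1 (1 and 1) they were 0 and 3 with DESeq2, 0 higher with RLE size factors and with at least 50 counts in 2 libraries, 2 and 2 with limma-voom, 2 and 3 with no filter, and 0 and 0 with the doubted libraries exchanged or left out. In M3 against M1 (3 and 2) they were 0 and 0 exchanged, 5 higher with both left out, 5 higher with no filter, and 5 and 6 on the adjusted p alone. In M4 against M1 (11 and 4), 6 were higher exchanged, 7 with both left out and 20 on the adjusted p alone. In M3 against M2 (1 and 1) they were 2 higher with DESeq2 and with no filter, 0 and 0 exchanged or left out, and 3 and 2 on the adjusted p alone. In M4 against M2 (10 and 5) they were 6 and 1 with both left out and 17 higher on the adjusted p alone. In M4 against M3 (4 and 2) they were 1 and 1 exchanged, 1 lower with both left out, with limma-voom and with only the 2 lines compared, and 10 higher on the adjusted p alone. The calls lost there by the exchange kept log2 fold changes of 1.95 (HERPUD1), 1.15 (DNAJB9), 2.89 (CHAC1) and -1.73 (SLC1A4). The amino acid median in M2 against M1 (0.065) was -0.046 exchanged, -0.051 with both left out and 0.21 with limma-voom; exchanged it was 0.080 in M3 against M2 and 0.28 in M4 against M2. The ER median was 0.75 in M4 against M2 exchanged, and with both left out 0.52 in M2 and 0.71 in M3 against M1. The difference of medians was -0.23 in M3 against M2 exchanged, and with both left out -0.57 in M2 against M1 and -0.29 in M3 against M2. With the ER folding factors alone the ER median and the difference were 0.62 and -0.55 in M2 against M1, 0.16 and -0.23 in M3 against M2, 0.33 and -0.21 in M4 against M2, and 0.10 and 0.13 in M4 against M3. Leaving out 1 library at a time, members called higher and lower ran from 0 to 2 and 0 to 1 in M2 against M1, 3 to 6 and 1 to 2 in M3 against M1, 6 to 9 and 2 to 5 in M4 against M1, 0 to 1 and 0 to 1 in M3 against M2, 6 to 9 and 0 to 3 in M4 against M2, and 2 to 5 and 0 to 3 in M4 against M3. In the same order of comparisons the amino acid median ran from -0.036 to 0.14, -0.19 to 0.19, 0.086 to 0.39, -0.11 to 0.092, 0.057 to 0.24 and 0.10 to 0.39. The ER median ran from 0.014 to 0.54 in M2 against M1, 0.21 to 0.32 in M3 against M2 and 0.25 to 0.51 in M4 against M3. The difference ran from -0.58 to 0.13, -0.64 to -0.045, -0.91 to -0.42, -0.41 to -0.22, -0.54 to -0.34 and -0.20 to 0.019. A line left with 1 library is assumed to vary like the others. CHAC1, SLC1A4 and ALDH1L2 fell to 9, 17 and 6 counts in their lowest libraries, where counting error is large.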
